A study of Mus musculus with 35 samples.

Results

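The 10 genes linked to monocytes are followed here through the sorted liver macrophages (macs) of mice on a Western diet (WD) or a standard diet (SD): *Chil3*, *Gpr183*, *Gpr141*, *Emb*, *Cyp4f18*, *Gsn*, *F13a1*, *Ly6c2*, *Plac8* and *Tnfsf8*. They are 10 of the 54735 gene symbols in the count files and were picked by name as genes that monocyte-derived cells keep. That choice rests on values of these samples, namely high levels in the CLEC4F- macs, so the levels in CLEC4F- macs are a description and carry no test. The open question is which of the 10 also stayed above the level of resident Kupffer cells in the recruited Kupffer cells that lack TIM4.

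Bulk RNA-seq was available for 35 samples of C57BL/6J mice in 6 groups. Resident Kupffer cells (ResKCs, sorted as CLEC4F+TIM4+) came from SD-fed mice at 12 weeks (n = 7), WD-fed mice at 12 weeks (n = 5), SD-fed mice at 24 weeks (n = 6) and WD-fed mice at 24 weeks (n = 6). From WD-fed mice at 24 weeks there were also monocyte-derived Kupffer cells (moKCs, CLEC4F+TIM4-, n = 5) and macs without CLEC4F (CLEC4F- macs, n = 6). The WD held excess fat and cholesterol with sugars in the drinking water, and the study's methods give male mice put on the diets at 5 weeks of age. Recruited Kupffer cells can gain TIM4 with time, and whether the ResKC gate held any such cells was not tested here. Levels are counts in 1e+06 (CPM) scaled by edgeR's TMM factors, and samples held 11568590 to 15163845 counts, at which 3 counts are 0.198 to 0.259 CPM. Such floors cover counting error only.

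A classical monocyte that enters the liver loses its blood programme as it turns into a mac, and a Kupffer cell niche further imposes the resident programme on it. Ly6C and CCR2 are the usual surface marks of the classical monocyte, and both fall as the cell matures. The 10 genes cover several parts of monocyte biology, from receptors and surface proteins to secreted proteins and enzymes.

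The sort was checked against the transcripts of its markers. *Timd4*, which encodes TIM4, had 547 to 885 CPM in the WD ResKCs at 24 weeks, 2.85 to 30.3 CPM in moKCs and 3.43 to 14.6 CPM in CLEC4F- macs. *Clec4f* mRNA was not absent from the CLEC4F- macs: it ran from 294 to 5488 CPM there, against 7326 to 11618 CPM in moKCs and 11174 to 15581 CPM in WD ResKCs. The highest value was that of CLEC4F- mac replicate 4, in which the summed level of 9 Kupffer cell markers was 12931 CPM, against 1452 to 5962 CPM in the other 5 samples of the group. The 9 markers did not behave alike: *Clec4f*, *Vsig4*, *Cd163*, *C6* and *Cdh5* did not overlap between CLEC4F- macs and moKCs, with *Vsig4* at 9.63 to 50.7 CPM against 2747 to 3451 CPM. *Cd5l* ran from 940 to 6604 CPM in CLEC4F- macs and from 6548 CPM upwards in moKCs, and *Clec1b* from 113 to 432 CPM and from 370 CPM upwards, so that replicate 4 overlapped with the moKCs for both. *Timd4* and *Marco*, low in both groups, overlapped too.

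Before the values, the stretches of DNA in front of 3 of the genes are shown, because all 3 carry the letters GAGGAAG, the purine box to which the myeloid factor PU.1 is known to bind. They are the 150 bases before a transcript start, from RefSeq on GRCm38.p6, written 5′ to 3′ on the strand of the gene, with GAGGAAG in capitals. Each of these genes has more than 1 listed start. The other starts of *Gsn* and *F13a1* had no GAGGAAG in the 250 bases before them, whereas the other start of *Ly6c2* did. Which start was in use in these cells was not tested.
F13a1 (chr13:37050245-37050394, minus strand): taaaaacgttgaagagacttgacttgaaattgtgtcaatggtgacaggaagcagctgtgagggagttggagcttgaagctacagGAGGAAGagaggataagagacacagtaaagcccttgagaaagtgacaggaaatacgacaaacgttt
Ly6c2 (chr15:75111972-75112121, minus strand): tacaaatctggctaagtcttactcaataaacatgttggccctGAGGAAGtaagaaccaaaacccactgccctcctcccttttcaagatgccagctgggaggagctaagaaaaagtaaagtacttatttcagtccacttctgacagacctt
Gsn (chr2:35256209-35256358, plus strand): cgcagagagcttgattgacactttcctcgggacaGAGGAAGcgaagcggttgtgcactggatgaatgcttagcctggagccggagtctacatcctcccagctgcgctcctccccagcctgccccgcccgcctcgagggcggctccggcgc
In the 250 bases before any listed start of a gene, searched on both strands, GAGGAAG was present for 4 of the 10 genes (*Cyp4f18*, *Gsn*, *F13a1* and *Ly6c2*) and for 12.0% of the 27025 genes in the table. The looser C/EBP-type letters TTNNGNAA were present for 7 of the 10 and for 40.3% of all genes, TATAAA for *Gpr141* alone among the 10 and for 14.3% of all genes, and TGANTCA, an AP-1 type motif, for 0 of the 10 and for 7.82% of all genes. The letters of TTNNGNAA and GAGGAAG can overlap, but no match overlapped another in these 10 genes. These matches describe letters in a window and were not tied to any value below.

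Of the 10 genes, 9 were higher in CLEC4F- macs than in any other group by their mean, and *Plac8* was not. The 9 divided in a simple way in the Kupffer cells: *Cyp4f18* and *Gsn* kept over 20 CPM in all samples, *Gpr183*, *Emb* and *F13a1* stood at a few CPM, and *Chil3*, *Gpr141*, *Ly6c2* and *Tnfsf8* had means under 1 CPM. For all 9, all CLEC4F- mac samples were above all moKC samples, which is also true of 3.96% of the 13421 genes that passed a filter of over 1 CPM in at least 5 samples. The 9 were picked for this pattern, so nothing is read from the count. All 10 passed the filter, but *Chil3*, *Gpr141*, *Ly6c2* and *Tnfsf8* did so through the CLEC4F- macs, and without that group these 4 would not have been tested.

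**Figure D1:**
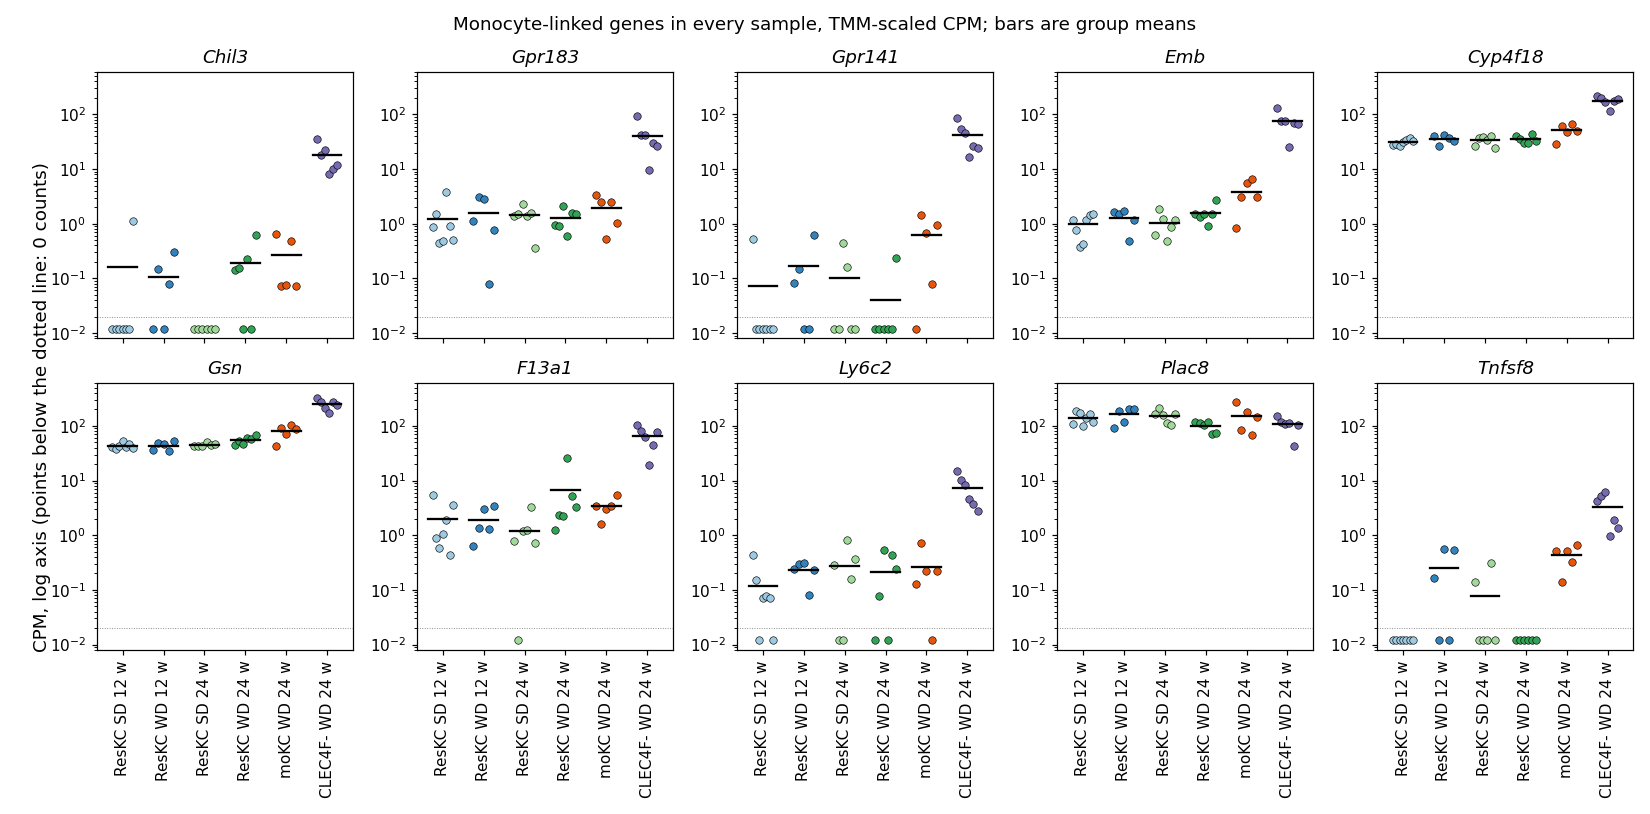
TMM-scaled CPM of the 10 genes in each of the 35 samples (points, log axis; points under the dotted line have 0 counts) by group, with the group mean as a bar. The CLEC4F- macs stand above all moKCs in every panel except that of *Plac8*, and the moKCs lie among or above the ResKCs.

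Per kilobase of exon, which allows levels to be compared between genes, *Cyp4f18* was highest in the CLEC4F- macs, with a mean of 96.0 CPM per kb, followed by *Gsn* with 79.0 and *Plac8* with 67.0 CPM per kb. *Gpr183*, *Chil3*, *Emb*, *F13a1* and *Gpr141* formed a middle group at 14.1, 10.9, 10.8, 9.64 and 7.10 CPM per kb. *Ly6c2* and *Tnfsf8* were lowest, with 2.70 and 0.863 CPM per kb.

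To find out which genes persisted, moKCs were compared with the WD ResKCs of the same diet and time by edgeR's quasi-likelihood test, fitted to all genes and all 35 samples, with Benjamini-Hochberg adjustment. Calls needed both an adjusted p under 0.05 and a log2 fold change beyond 1 in either direction. One of the 10 genes, *Tnfsf8*, was called higher in moKCs, against 1.39% of all genes called in either direction. *Tnfsf8* passed the filter through the CLEC4F- macs alone and was not tested when the compared groups were fitted by themselves, so the call depends on the group for which the gene was chosen. The log2 fold changes of 9 of the 10 were above 0, with a median of 0.56, against a median of 0.02 over all genes. Since the WD ResKCs and the moKCs were both on the low side of the pattern that chose the genes, these comparisons are not independent of the choice of samples. Against the SD ResKCs at 24 weeks, which differ from the moKCs in diet too, *Emb* was the 1 gene called, against 5.63% of all genes. In that comparison 8 of the 10 log2 fold changes were above 0, and their median was 1.16, or 0.71 with the gene whose ResKC samples were all at 0 set to its lower bound; the median over all genes was 0.02. Both comparisons use the same 5 moKC samples. Log2 fold changes are given below as estimate ± standard error, which was worked back from the F statistic of the test.

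**Figure D2:**
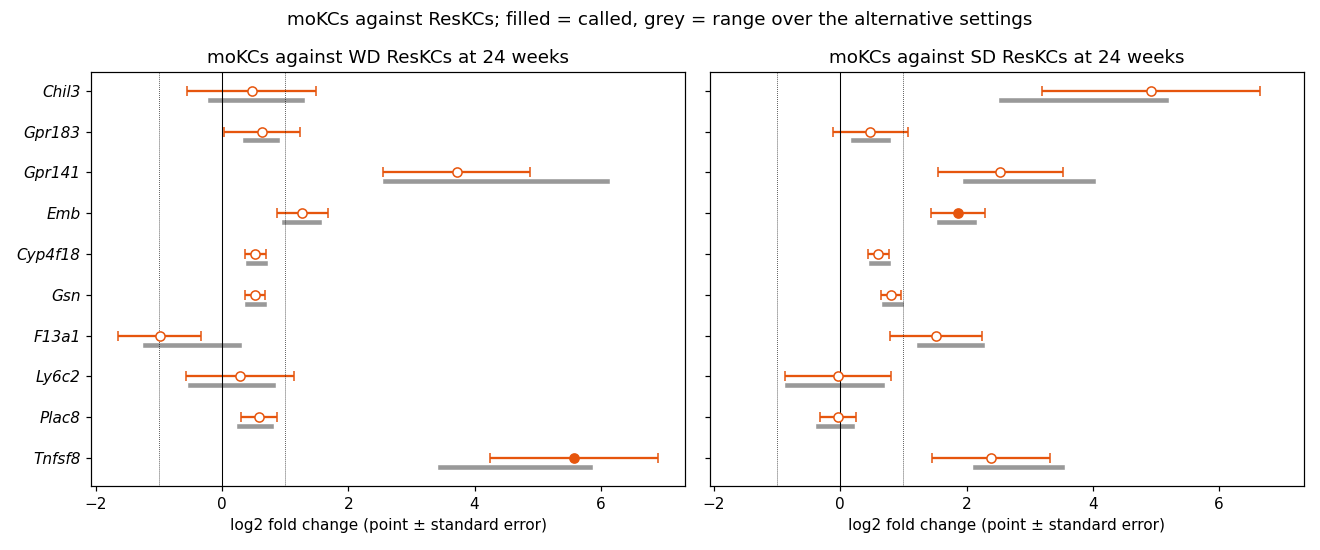
Log2 fold change of each gene in moKCs against WD ResKCs (left) and SD ResKCs (right) at 24 weeks, with the standard error as bars. Filled points mark called genes, and grey lines the range over the alternative settings. *Tnfsf8* is filled on the left and *Emb* on the right, and the points of *Cyp4f18* and *Gsn* are tight but lie under the limit of 1.

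As a second view, the mean level of each gene in moKCs was placed between that of WD ResKCs (0%) and that of CLEC4F- macs (100%). *Tnfsf8* stood at 13.2% ± 6.16 of this distance (SD over the moKC samples alone, n = 5), *Gsn* 12.3% ± 12.1 and *Cyp4f18* 10.9% ± 10.5. *Emb* stood at 3.10% ± 3.12, *Gpr183* at 1.75% ± 2.90, *Gpr141* at 1.38% ± 1.41, *Ly6c2* at 0.589% ± 3.76 and *Chil3* at 0.433% ± 1.56, and none of these 5 differed from 0 by more than the SD. For *F13a1* the share was -5.69% ± 2.32, but it turned to 0.907% without WD ResKC replicate 4 and was 0.881% with medians in place of means. Leaving out single samples moved the shares of *Gpr183* to 0.906% (without moKC replicate 1) and 2.66% (without moKC replicate 3), of *Gpr141* to 0.913% (without moKC replicate 2), of *Chil3* to -0.105% (without moKC replicate 1) and 0.928% (without WD ResKC replicate 6), and of *Ly6c2* to -0.995% (without moKC replicate 2) and 1.48% (without moKC replicate 4). No share was formed for *Plac8*, whose CLEC4F- and ResKC means differed by less than the SD of either group. In no moKC sample did any of the 9 shares exceed 24.9%.

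**Figure D3:**
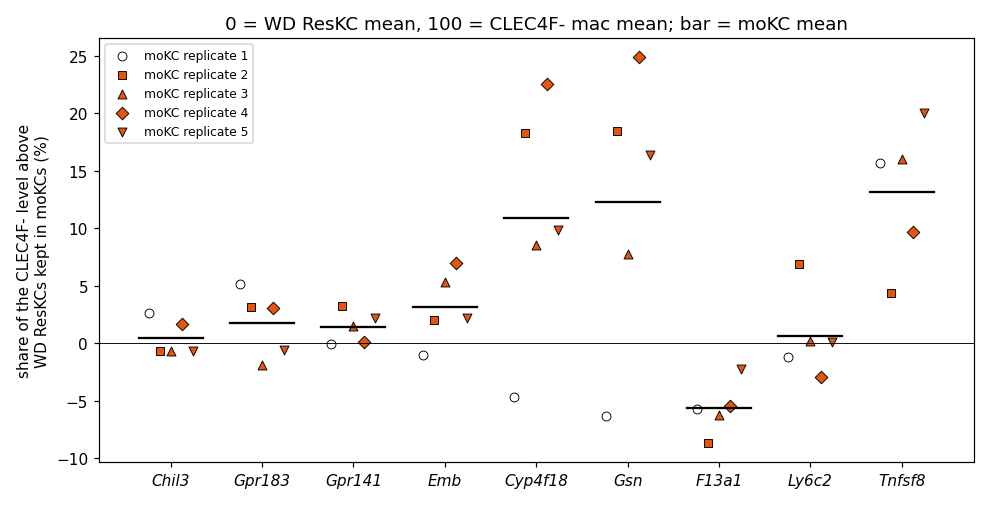
Position of each moKC sample on the way from the WD ResKC mean to the CLEC4F- mac mean, in percent (y axis, named there as the share kept), for 9 genes, with the moKC mean as a bar and a symbol for each of the 5 samples; 0 is the WD ResKC mean. Replicate 1 (open circles) is under 0 for *Emb*, *Cyp4f18* and *Gsn*, whereas the other 4 samples are above 0 for these 3 genes.

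One moKC sample set much of this spread. Replicate 1 was the lowest moKC sample for *Gpr141*, *Emb*, *Cyp4f18* and *Gsn* and the highest for *Chil3*, *Gpr183* and *Plac8*. It was also the lowest for *Ccr2*, at 12.1 CPM against 25.0 to 38.1 CPM in the other 4, and for *Cx3cr1*, the fractalkine receptor, at 11.2 CPM against 49.2 to 124 CPM. Its *Timd4*, at 9.17 CPM, and *Vsig4*, at 2852 CPM, were within the ranges of the other moKCs. So was its summed level of 9 Kupffer cell markers, 23530 CPM. Its *Clec4f*, at 11618 CPM, and *Cd163*, at 113 CPM, were the highest of the 5 samples. The others reached at most 11240 and 94.5 CPM. The summed level of 5 liver endothelial markers in replicate 1, 1291 CPM, was also the highest, the others being at 472 to 1011 CPM. The part these transcripts have in its values was not tested. Without replicate 1, the genes called against WD ResKCs numbered 3: *Tnfsf8*, *Emb* (log2 fold change 1.54, adjusted p = 0.0151) and *Gpr141* (4.06, adjusted p = 0.0299). Of these 3, *Tnfsf8* and *Gpr141* were testable through the CLEC4F- macs alone. Calls over all genes rose as well, from 186 with all samples to 239 without replicate 1, the highest count with any single sample left out. The rise in calls was therefore not confined to the monocyte-linked genes.

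The gene called against WD ResKCs encodes a ligand, and its level was very low. *Tnfsf8* (chr4:63831308-63861347, minus strand, protein coding) encodes CD30 ligand, a membrane protein of the tumour necrosis factor family that signals to CD30 on lymphocytes. The moKC samples had 0.517, 0.142, 0.525, 0.318 and 0.659 CPM, from 8, 2, 7, 4 and 9 counts. All 6 WD ResKC samples at 24 weeks had 0 counts, so that no sample of one group overlapped with the other, as for 1.04% of all genes in that direction. With the ResKC samples set to the floor of 3 counts per library, the moKC mean was at least 1.85-fold higher. The adjusted p was 0.0214 (edgeR's quasi-likelihood test), and over 17 alternatives it ran from 0.0032 to 0.0711. Without moKC replicate 5 it was 0.053 and the call was lost. These p-values are for a gene that passed the filter through the CLEC4F- macs alone, the group for which it was chosen. In CLEC4F- macs *Tnfsf8* ran from 0.95 to 6.08 CPM, with a median of 3.05 CPM and a mean at least 14.1-fold above the same floor. Summed T cell markers (5 genes) were at 0.477 to 3.37 CPM in moKCs and 0.767 to 2.41 CPM in WD ResKCs at 24 weeks. Summed natural killer cell markers (5 genes) were at 1.81 to 4.41 CPM and 0.613 to 2.54 CPM in the same groups. In CLEC4F- macs the sums were 3.299 to 14.98 CPM for T cells and 2.39 to 7.09 CPM for natural killer cells. The part of such cells in the level of *Tnfsf8* was not tested.

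*Tnfsf8* was not silent in all other ResKCs. WD ResKCs at 12 weeks had 0.162, 0, 0.550, 0 and 0.540 CPM, a range that overlaps with that of the moKCs, whereas all 7 SD ResKC samples at 12 weeks had 0 counts. The 6 SD ResKC samples at 24 weeks ran from 0 to 0.316 CPM, with a median of 0 CPM, and 4 of the 5 moKC samples were above the highest of them (adjusted p = 0.0938). The gene of its receptor, *Tnfrsf8*, stood at 0.465 CPM in moKCs, 0.354 CPM in WD ResKCs and 1.96 CPM in CLEC4F- macs by the mean.

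Among the surface proteins, *Emb* (chr13:117208536-117274415, plus strand, protein coding) encodes embigin, an immunoglobulin-type membrane protein that escorts monocarboxylate transporters to the surface. The 5 moKC samples gave 0.839, 3.06, 5.47, 6.68 and 3.15 CPM. WD ResKCs at 24 weeks ran from 0.903 to 2.68 CPM with a median of 1.51 CPM, and SD ResKCs at 24 weeks from 0.489 to 1.88 CPM with a median of 1.01 CPM. Of the 5 moKC samples, 4 were above the highest sample of both groups, and replicate 1 was under the lowest WD ResKC sample.

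The log2 fold change of *Emb* was 1.86 against SD ResKCs (standard error 0.43, adjusted p = 0.00289, edgeR), and it was 1.27 against WD ResKCs (standard error 0.41, adjusted p = 0.0857), with an interval of 0.44 to 2.11. The first passed the threshold in 17 of 18 alternatives and the second in 2 of 18, and with limma-voom neither was called. The first holds a difference in diet as well, and one in the naming scheme of the alignments, described further on. All 6 SD ResKC samples follow the first scheme, and 3 of the 5 moKC samples the second. In moKCs *Emb* had a mean of 1.95 CPM in the first scheme and 5.10 CPM in the second. With the scheme as a covariate the log2 fold change against SD ResKCs was 1.75 (adjusted p = 0.0139, edgeR). Between WD and SD ResKCs at 24 weeks *Emb* differed by 0.59 ± 0.44 on the log2 scale (adjusted p = 0.436, edgeR). In the CLEC4F- macs *Emb* ran from 24.9 to 133 CPM with a median of 72.6 CPM, or 5.56 on the log2 scale (standard error 0.42) over WD ResKCs. Of the 75-base stretches of its transcripts, 11.8% also occur in transcripts of *Gm17509* or *Rnf7*, and *Gm17509* lies across *Emb* on the other strand, so reads of these stretches cannot be assigned without the strand setting. Of the transporters that work with embigin and its relative basigin, *Slc16a1* rose in WD ResKCs at 24 weeks (1.56 ± 0.44 on the log2 scale, adjusted p = 0.0226) and in moKCs against SD ResKCs (2.38 ± 0.45, adjusted p = 3.73e-04). *Slc16a3* had an adjusted p of 8.61e-04 (edgeR) between diets at 24 weeks with a log2 fold change of 0.90, under the limit, and *Slc16a7* and *Bsg* were not called in any of the 6 comparisons.

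*Ly6c2* (chr15:75108158-75111970, minus strand, protein coding) encodes the Ly6C antigen by which classical monocytes are gated. In moKCs, replicates 1 to 5 had 0.129, 0.712, 0.225, 0 and 0.2195 CPM, and WD ResKCs ran from 0 to 0.537 CPM with a median of 0.157 CPM. The ranges overlapped, and 4 of the 5 moKC samples had at most 3 counts. Its log2 fold change was 0.29 ± 0.85 (adjusted p = 0.918), and its interval of -1.46 to 2.03 leaves room for a rise or a fall of several-fold, so a difference was not detectable at this depth. CLEC4F- macs had 2.84 to 14.8 CPM with a median of 6.37 CPM, all above the other groups. *Ly6c2* shares 9.46% of its 75-base stretches with *Ly6c1*, which had at most 0.393 CPM by the mean of any group, and the neighbouring *Ly6i* stood at 7.09 CPM in CLEC4F- macs and 0.197 CPM in moKCs.

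Of the G protein-coupled receptors, *Gpr183* (chr14:121952551-121965195, minus strand, protein coding, inside *Ubac2* on the other strand) encodes EBI2, which guides cells along gradients of oxysterols. Its levels in the moKC samples were 3.29, 2.49, 0.525, 2.46 and 1.02 CPM, and WD ResKCs at 24 weeks ran from 0.602 to 2.07 CPM with a median of 1.22 CPM. In 3 of the 5 moKC samples the level was above the highest WD ResKC sample, and in 1 it was under the lowest. The log2 fold change of 0.64 ± 0.60 (adjusted p = 0.677, interval -0.59 to 1.86) did not exceed this spread. CLEC4F- macs held 9.57 to 94.9 CPM with a median of 36.0 CPM, or 5.00 on the log2 scale (standard error 0.59) over WD ResKCs. Of the enzymes for its ligand, *Ch25h* and *Cyp7b1* had means of 0.714 and 4.32 CPM in moKCs, and *Hsd3b7* had 0 counts in all samples.

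*Gpr141* (chr13:19749682-19824257, minus strand, protein coding) encodes an orphan receptor of myeloid cells. The moKC samples had 0, 1.42, 0.674, 0.0795 and 0.951 CPM, from 0, 20, 9, 1 and 13 counts. Of the 6 WD ResKC samples, 5 had 0 counts and the last had 3, and 3 of the 5 moKC samples were above it. The ratio of the summed counts was 16.0, with an exact 95% interval from 5.12 to 80.7 that covers counting error only. The fitted log2 fold change was 3.72 ± 1.17 (adjusted p = 0.0753, edgeR), which passed the threshold in 2 of 17 alternatives. Like *Tnfsf8*, *Gpr141* could be tested through the CLEC4F- macs alone, so its p-values are not independent of the choice of genes. CLEC4F- macs held 16.8 to 85.3 CPM with a median of 36.5 CPM, so that the lowest of them stood at 16.8 CPM and the highest moKC sample at 1.42 CPM. *Gpr141b*, its neighbour, had at most 0.351 CPM by the mean of any group.

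For the genes of secreted proteins no difference between moKCs and WD ResKCs passed the test. *Chil3* (chr3:106147554-106167564, minus strand, protein coding) encodes Ym1, a chitinase-like protein without chitinase activity that classical monocytes make in quantity. Replicates 1 to 5 of the moKCs stood at 0.646, 0.0712, 0.0749, 0.477 and 0.0732 CPM, so that 3 of the 5 had 1 count. WD ResKCs ran from 0 to 0.631 CPM with a median of 0.149 CPM, and the ranges overlapped (0.47 ± 1.02 on the log2 scale, adjusted p = 0.886, interval -1.61 to 2.55). All 6 SD ResKC samples at 24 weeks had 0 counts (adjusted p = 0.0555, edgeR, range 0.0301 to 0.353 over 17 alternatives). With these samples set to the floor of 3 counts per library, 0.225 CPM, the moKC mean was at least 1.19-fold higher. The 3 moKC samples with 1 count were themselves under that floor. *Chil3*, too, passed the filter through the CLEC4F- macs alone. CLEC4F- macs held 7.96 to 35.9 CPM with a median of 15.01 CPM. *Chil4*, which shares reads with *Chil3*, had 0 counts in all samples; 13% of the 75-base stretches of *Chil3* also occur in *Chil4* or *Gm6522*.

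*F13a1* (chr13:36867178-37050244, minus strand, protein coding) encodes the catalytic subunit of coagulation factor XIII, the transglutaminase that cross-links fibrin. The 5 moKC samples gave 3.36, 1.64, 3.07, 3.499 and 5.42 CPM. WD ResKCs at 24 weeks ran from 1.23 to 26.1 CPM with a median of 2.77 CPM, and the highest was replicate 4, the next being at 5.17 CPM. The log2 fold change of moKCs was -0.98 ± 0.66 (adjusted p = 0.503), and without WD ResKC replicate 4 it was 0.27 (adjusted p = 0.884). CLEC4F- macs held 18.9 to 105 CPM with a median of 69.8 CPM, and their lowest sample was under WD ResKC replicate 4.

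*F13a1* was the 1 gene of the 10 called between diets at 24 weeks, against 3.35% of all genes. SD ResKCs at 24 weeks ran from 0 to 3.24 CPM with a median of 0.989 CPM, and the log2 fold change of WD against SD was 2.50 ± 0.69 (adjusted p = 0.0207, edgeR). The ranges of the groups overlapped. Without WD ResKC replicate 4 the log2 fold change was 1.25 and the adjusted p was 0.22, and the call was lost; over 19 alternatives the adjusted p ran from 0.00727 to 0.246. The call was also lost with the naming scheme of the alignments as a covariate (adjusted p = 0.0783), described further on. All 6 SD ResKC samples at 24 weeks follow the first scheme, and the WD ResKCs had a mean of 1.92 CPM in their 3 samples of the first and 11.5 CPM in their 3 of the second, which holds replicate 4.

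*Gsn* and *Cyp4f18* had the highest levels of the 9 genes per kilobase and the narrowest standard errors. *Gsn* (chr2:35256380-35307892, plus strand, protein coding) encodes gelsolin, which cuts and caps actin filaments. In moKCs, replicates 1 to 5 had 43.1, 91.3, 70.4, 104 and 87.2 CPM. WD ResKCs at 24 weeks ran from 44.0 to 69.5 CPM with a median of 55.4 CPM, and SD ResKCs at 24 weeks from 42.8 to 51.2 CPM with a median of 43.9 CPM. Of the 5 moKC samples, 4 were above every sample of both groups, and replicate 1 was under the lowest WD ResKC sample.

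For *Gsn* the log2 fold change in moKCs was 0.81 against SD ResKCs (standard error 0.16, adjusted p = 5.14e-04, edgeR), which passed the p threshold in all 18 alternatives, and 0.52 against WD ResKCs (standard error 0.16, adjusted p = 0.0672), which passed it in 3 of 18. Both were under the limit of 1 on the fold change. The SD comparison holds a difference in diet as well, and its SD samples all follow the first naming scheme, described further on. Between WD and SD ResKCs at 24 weeks *Gsn* differed by 0.29 ± 0.15 on the log2 scale (adjusted p = 0.229, edgeR). CLEC4F- macs held 174 to 320.0 CPM with a median of 257 CPM. Transcripts of other liver cells also differed here: of 5 stellate cell and fibroblast markers, *Col3a1* and *Dcn* were called higher in moKCs than in WD ResKCs (1.44 and 1.34 on the log2 scale, adjusted p = 0.0413 for both, edgeR). The summed level of the 5 markers was 177, 148, 72.2, 142 and 102 CPM in moKC replicates 1 to 5 and 32.1 to 97.0 CPM in WD ResKCs. Of 5 B cell markers, *Cd79b* was called higher in moKCs than in WD ResKCs (1.15 ± 0.32 on the log2 scale, adjusted p = 0.0375, edgeR). The part of such cells in the level of *Gsn*, which fibroblasts are also known to express, was not tested. Of the other actin severing and capping genes listed as relatives, *Capg* stood at 380 CPM in moKCs, 298 CPM in WD ResKCs and 405 CPM in CLEC4F- macs by the mean, and *Scin* and *Vil1* were near 0.

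*Cyp4f18* (chr8:71988482-72009626, minus strand, protein coding, overlapping *Zfp961* on the other strand) encodes a cytochrome P450 that inactivates leukotriene B4. Its levels in the moKC samples were 28.6, 61.4, 47.4, 67.6 and 49.3 CPM, and WD ResKCs at 24 weeks ran from 29.9 to 43.2 CPM with a median of 33.8 CPM. As for *Gsn*, 4 of the 5 moKC samples were above every WD ResKC sample and replicate 1 was under the lowest. The log2 fold change was 0.53 against WD ResKCs (standard error 0.17, adjusted p = 0.0807) and 0.60 against SD ResKCs (standard error 0.17, adjusted p = 0.0133), the second past the p threshold in 15 of 18 alternatives but under the limit on the fold change. CLEC4F- macs held 116 to 214 CPM with a median of 183 CPM. Of the leukotriene genes, *Alox5ap* fell in moKCs against SD ResKCs (-1.05 ± 0.23 on the log2 scale, adjusted p = 0.00161, edgeR), and *Alox5*, *Lta4h* and *Ltb4r1* were not called. The low level of *Alox5ap* was not particular to moKCs. Its mean was 107 CPM in SD ResKCs at 24 weeks, 59.7 CPM in WD ResKCs at 24 weeks and 51.7 CPM in moKCs, and it was not called in moKCs against WD ResKCs.

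*Plac8* (chr5:100553725-100572245, minus strand, protein coding) encodes a small cysteine-rich protein of monocytes and plasmacytoid dendritic cells, and its data went against its place among genes kept in CLEC4F- macs. The CLEC4F- macs ran from 43.2 to 153 CPM with a median of 113 CPM, and the ResKC samples lay between 70.1 and 212 CPM over the 4 groups. All CLEC4F- mac samples but the lowest fell within that range. The moKC samples had 271, 83.4, 180 (replicate 3), 67.4 and 146 CPM, a wider range than in any other group. The log2 fold change of CLEC4F- macs was 0.10 (standard error 0.27) against WD ResKCs and -0.49 (standard error 0.28) against moKCs. Between moKCs and WD ResKCs it was 0.59 ± 0.28 (adjusted p = 0.304), and 0.26 without moKC replicate 1. WD ResKCs at 24 weeks had the lowest mean of the 6 groups, 99.4 ± 21.9 CPM (SD, n = 6), against 153 ± 39.3 CPM (SD, n = 6) in SD ResKCs, a difference that did not pass the test (-0.62 ± 0.27 on the log2 scale, adjusted p = 0.151).

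Diet and time were then compared within the ResKCs. Between WD and SD ResKCs at 12 weeks none of the 10 was called by edgeR, DESeq2 or limma-voom, and 1 (*Tnfsf8*) had an unadjusted p under 0.05; of all genes edgeR called 0 (0%), DESeq2 16 and limma-voom 1, and 1172 had an unadjusted p under 0.05 in edgeR. Between SD ResKCs at 24 and 12 weeks none of the 10 was called by the 3 tools either, with 2 (*Chil3* and *Tnfsf8*) at an unadjusted p under 0.05, and of all genes edgeR called 0 (0%), DESeq2 9 and limma-voom 0, with 1208 at an unadjusted p under 0.05. The diet effect at 24 weeks differed from that at 12 weeks for 0.0596% of all genes and for none of the 10 by any of the 3 tools. Of the 10, 4 (*Chil3*, *F13a1*, *Plac8* and *Tnfsf8*) had an unadjusted p under 0.05 in edgeR, as had 1886 of all 13421 genes. The lowest adjusted p was that of *Tnfsf8*, 0.0842, where the WD ResKCs at 24 weeks and the SD ResKCs at 12 weeks were all at 0 counts. In the order of the group means, the neighbours among the 5 Kupffer cell groups overlapped for all 10 genes. Groups wholly at 0 counts were scored as overlapping where the neighbour held a 0 too. The share of all genes for which this holds was not counted, so nothing is read from it.

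Among the 6 CLEC4F- mac samples, most of the 10 genes had the same highest and lowest sample. Replicate 1 was the highest for 9 of the 10, the exception being *Tnfsf8*, and replicate 4 was the lowest for 8, the exceptions being *Ly6c2* and *Plac8*. Replicate 1 had the lowest summed Kupffer cell markers of the group, 1452 CPM, and the highest summed levels of 6 conventional dendritic cell markers, 257 CPM against 22.8 to 79.2 CPM, and of 5 B cell markers, 169 CPM against 28.3 to 61.8 CPM. Replicate 4, as given above, had the highest summed Kupffer cell markers. The part of these other cells in the levels of the 10 genes was not tested, and in bulk samples fewer cells of a type and less RNA per cell cannot be told apart. Neutrophil markers had a summed level of 8.39 to 13.3 CPM over 6 markers, with *Ly6g* at 0 counts. That sum was at most 8.71 CPM in any sample of the other groups, and its part in the levels of the 10 genes was not tested.

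**Figure D4:**
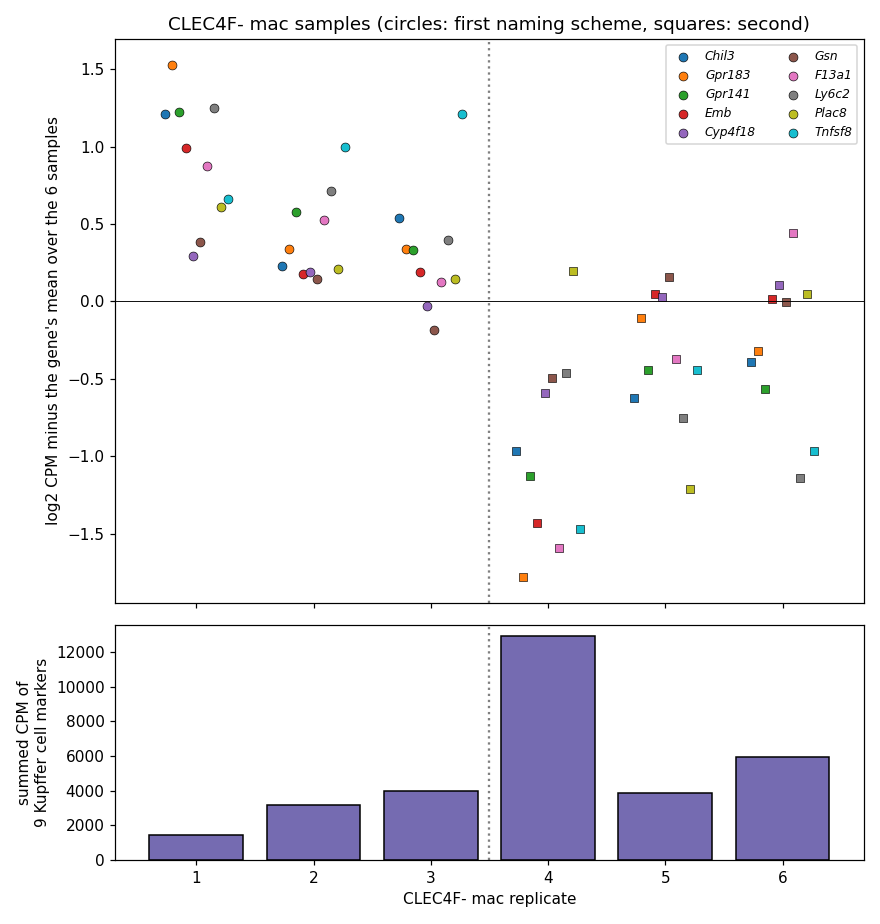
Top, log2 CPM of each gene minus its mean over the 6 CLEC4F- mac samples, by replicate and naming scheme (circles, first; squares, second); bottom, summed CPM of 9 Kupffer cell markers in the same samples. Replicates 1 to 3 lie mostly above 0 and replicates 4 to 6 mostly below, and replicate 4 has the tallest bar, 12931 CPM.

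The samples also differ in how their alignments are named in the count files, in 2 schemes that the sources used here do not explain. CLEC4F- mac replicates 1 to 3 follow the first and replicates 4 to 6 the second. For 6 of the 10 genes (*Chil3*, *Gpr183*, *Gpr141*, *Emb*, *Ly6c2* and *Tnfsf8*) all 3 samples of the first scheme were above all 3 of the second, as for 10.3% of all genes in that direction. *Chil3* had a mean of 25.5 CPM in the first scheme and 9.96 CPM in the second, *Ly6c2* 11.1 and 3.69 CPM, and *Tnfsf8* 5.16 and 1.41 CPM. The mean log2 CPM of CLEC4F- macs minus that of WD ResKCs was above 0 in both schemes for the 9 genes other than *Plac8*, and smaller in the second. It was 6.71 and 4.83 for *Chil3*, 5.32 and 3.95 for *Gpr183*, 8.66 and 6.79 for *Gpr141*, 5.85 and 4.86 for *Emb* and 2.47 and 2.17 for *Cyp4f18*. It was 2.47 and 1.85 for *Gsn*, 5.35 and 2.37 for *F13a1*, 5.26 and 3.55 for *Ly6c2* and 5.14 and 3.34 for *Tnfsf8*, and for *Plac8* it changed sign, with 0.17 and -0.0845. For moKCs against WD ResKCs, *Tnfsf8* differed by 1.57 and 2.09, *Gpr141* by 1.70 and 1.53, *Gsn* by 0.39 and 0.46 and *Cyp4f18* by 0.26 and 0.63, whereas *Emb* differed by 0.16 in the first scheme, which holds replicate 1, and 1.57 in the second. *Gpr183*, *Chil3*, *Ly6c2* and *F13a1* changed sign between the schemes.

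The 10 genes were set beside other monocyte genes, listed with earlier results of these data known. Of 14 classical monocyte genes, 13 passed the filter, and 1 was called higher and 1 lower in moKCs than in WD ResKCs, with a median log2 fold change of 0.23. The higher one was *Ccr2*, the receptor that draws classical monocytes out of the marrow, with 12.1, 36.7, 25.0, 31.7 and 38.1 CPM in moKCs, 6.03 ± 0.737 CPM (SD, n = 6) in WD ResKCs and 717 ± 331 CPM (SD, n = 6) in CLEC4F- macs. All moKC samples were above all WD ResKC samples (2.25 ± 0.32 on the log2 scale, adjusted p = 4.18e-05, edgeR). The lower one was *Fn1*, fibronectin (-1.91 ± 0.49 on the log2 scale, adjusted p = 0.0225). *Hp* had a lower mean in CLEC4F- macs than in WD ResKCs, at 108 against 141 CPM. Of 9 patrolling monocyte genes, *Cx3cr1* was called higher in moKCs, with 11.2, 87.6, 49.2, 124 and 88.8 CPM against 3.77 to 26.0 CPM in WD ResKCs (2.74 ± 0.48 on the log2 scale, adjusted p = 5.79e-04, edgeR), and none was called lower. The log2 fold changes of the 9 were above 0 for 5 and below 0 for 4, with a median of 0.01.

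Some genes of these lists were also called in the diet comparison of ResKCs at 24 weeks. Of the 13 classical monocyte genes, *Fn1*, *Thbs1* and *Hp* rose, with log2 fold changes of 2.49, 2.26 and 1.71, and *Cd14* and *Klf4* fell, with -1.20 and -2.07 (adjusted p = 9.31e-04, 0.00770, 0.0118, 0.00409 and 0.0372, edgeR). *Fn1* and *Thbs1* were highest in WD ResKC replicate 4, at 686 and 165 CPM, the sample that was also highest for *F13a1*, and *Hp* in replicate 3, at 222 CPM. The summed level of 5 hepatocyte markers was 659 to 1929 CPM in WD and 295 to 986 CPM in SD ResKCs and was highest in that replicate 3. The part of these samples and of hepatocyte RNA in the 3 changes was not tested. Of the 9 patrolling monocyte genes *Cx3cr1* and *Spn* rose, with 2.50 and 2.29 (adjusted p = 0.00502 and 0.0189, edgeR). The log2 fold changes of the other 7 were below 0, 2 of them at an adjusted p under 0.05 but within the fold limit. The median of this list was -0.25. Of 16 relatives of the 10 genes 9 passed the filter, and *Ly6a* was called higher in moKCs than in WD ResKCs (1.40 ± 0.38 on the log2 scale, adjusted p = 0.0352). Of 12 genes that work with the 10, 11 passed, and none was called in that comparison.

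Over the 35 samples, the 5 genes whose log2 CPM followed the mean of the 10 most closely were *Ccr2* (Pearson r = 0.969), *Mcf2l* (r = 0.969), *Ehf* (r = 0.966), *Rapsn* (r = 0.961) and *S100a6* (r = 0.959). The samples fall into CLEC4F- macs and Kupffer cells, so these values describe mainly that step. *Mcf2l* had 6.15 CPM in CLEC4F- macs and 0.0888 CPM in moKCs by the mean, and *S100a6* 46.9 and 2.74 CPM.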

How the data were processed

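Libraries of sorted liver macs were made with a TruSeq RNA kit and sequenced as single reads of 75 bases. The authors mapped the reads to mm10 with HISAT2 2.2.0 and counted them per gene with featureCounts 2.0.0 (versions from the submitters' processing notes, which also name FastQC 0.11.9 and SAMtools 1.10). The deposited files hold raw counts, as whole numbers by gene symbol, neither filtered nor normalized. Annotation, strand setting and the treatment of reads with several matches are not given in the sources used here, so overlapping and near-identical genes are uncertain. Groups follow the sample titles. A label field of the 5 WD ResKC samples at 12 weeks names the standard diet and was not followed.

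A gene was tested if 5 or more samples had over 1 CPM (13421 genes). Then edgeR 4.0.16 in R 4.3.3 was fitted with 1 mean for each of the 6 groups over all 35 samples, with TMM factors and Benjamini-Hochberg adjustment. The limits on the log2 fold change (beyond 1 either way) and on the adjusted p (under 0.05) are those of the study's methods, which used limma. Standard errors are the absolute log2 fold change over the square root of the quasi-likelihood F, and for groups near 0 counts they are rough. Intervals use these standard errors and 29 residual degrees of freedom. Log2 CPM used a prior count of 2. The alternatives were DESeq2, limma-voom, no filter, library size alone, replicate number as a block, naming scheme as a covariate, the compared groups alone, other limits and each replicate left out in turn. The test was checked on simulated data. The study counts animals as n, but the labels tie no sample to a mouse and do not say whether populations share mice, so p-values measure the spread between these samples. Gene positions and exon lengths are from GENCODE M21 (GRCm38, the build of mm10), in which 54183 of 54735 symbols were found. Shared 75-base stretches were counted between its transcripts. Promoters of all 10 genes were found in the RefSeq table.

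The 10 genes, the lists and the tests were chosen with earlier results of these data known. All 10 genes are named, and of the lists those called in moKCs against WD ResKCs or between diets, or else with the largest mean CPM. *Vcan* of the classical monocyte list did not pass the filter. Likeness was the Pearson correlation with the mean centred log2 CPM of the 10. Genes outside this rule (*Timd4*, *Clec4f*, *Vsig4*, *Ly6g*, stellate cell markers, and genes of low level among the partners and relatives) were chosen after their values were seen. A gene of the classical monocyte list is not reported here by name.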

Additional observations from a re-analysis of the deposited data

Results flagged for a closer look

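In 3 of 39 groups of samples, 1 value stood far from the rest by Dixon's test on log2 CPM, run for groups with a mean over 1 CPM, which by chance marks about 1 group in 20. *Gpr183* had 0.361 CPM in SD ResKC replicate 6 at 24 weeks, against 1.39 to 2.26 CPM in the other 5 samples. *Cyp4f18* had 116 CPM in CLEC4F- mac replicate 4, against 171 to 214 CPM in the others; this is the sample with 12931 CPM of summed Kupffer cell markers. *Plac8* had 43.2 CPM in CLEC4F- mac replicate 5, against 103 to 153 CPM in the others.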

How the results depend on the processing

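Of the genes called among the 10 in moKCs against WD ResKCs (1, *Tnfsf8*), DESeq2 made 2 (with *Emb*), the naming scheme as a covariate 2 (with *Gpr141*), limma-voom 0, stricter limits (1.5 and 0.01) 0, and the compared groups alone 0, where *Tnfsf8* no longer passed the filter; leaving out single replicates gave 0 to 3. Against SD ResKCs (1, *Emb*), DESeq2, library size alone and the naming scheme gave 2 each, no limit on the fold change 3, limma-voom 0 and single replicates left out 1 to 2. Between diets at 24 weeks (1, *F13a1*), limma-voom, the naming scheme, the compared groups alone and stricter limits gave 0, and single replicates left out 0 to 1.

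Counts over all genes moved by over 1.5 times as follows. Without a fold limit they were 401 (moKCs against WD ResKCs, 186 with the limit), 1879 (moKCs against SD ResKCs, 5.63% of genes with the limit), 1169 (450, diets at 24 weeks), 5 (0, diets at 12 weeks) and 38 (8, difference of diet effects); with stricter limits 68, 313, 109 and, for the difference, 1. For diets at 24 weeks limma-voom gave 293 and the naming scheme 270; for diets at 12 weeks DESeq2 gave 16, limma-voom 1 and the naming scheme 2; for SD ResKCs over time DESeq2 gave 9; for the difference DESeq2 gave 19, no filter 3 and the compared groups alone 5. With single replicates left out the ranges were 127 to 239, 601 to 849, 324 to 458, 0 to 66 (66 without SD ResKC replicate 7), in the same order, then 0 to 5 (5 without SD ResKC replicate 1 at 24 weeks) over time, and 2 to 24 for the difference (2 without SD ResKC replicate 5 at 12 weeks, 24 without SD ResKC replicate 3 at 24 weeks).

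The replicate numbers are shared between groups, but nothing says that they pair mice. Deviations of same-numbered samples correlated at -0.157 to 0.149 between moKCs and WD ResKCs, -0.191 to 0.02 between moKCs and SD ResKCs, -0.023 to 0.13 between diets at 24 weeks, -0.357 to 0.024 between diets at 12 weeks, -0.118 to 0.095 between CLEC4F- macs and moKCs, and 0.024 to 0.263, above 0 in all 6 pairs, between CLEC4F- macs and WD ResKCs. With the replicate number as a block, 2 of the 10 genes were called in moKCs against SD ResKCs (*Emb* and *Chil3*) and 67 of all genes between diets at 12 weeks; the counts of members called in the other comparisons did not change.

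Of 60 fitted changes of the 10 genes, 21, none of them called, changed sign in at least 1 alternative. With single replicates left out, the log2 fold changes in moKCs against WD ResKCs ran from -0.18 to 1.26 for *Chil3* (lowest without moKC replicate 1), -1.22 to 0.27 for *F13a1* (highest without WD ResKC replicate 4) and -0.51 to 0.81 for *Ly6c2* (lowest without moKC replicate 2), and that of *Plac8* in CLEC4F- macs against WD ResKCs from -0.0138 to 0.26 (lowest without CLEC4F- mac replicate 1). The share of the CLEC4F- level that *F13a1* kept was 0.881% with medians in place of means and -7.72% to 0.907% with single replicates left out. The causes were not tested. For *Chil3*, *Ly6c2*, *Gpr141* and *Tnfsf8* few counts per Kupffer cell sample limit the precision.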
